A study of Mus musculus with 16 samples.

Results

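The protein part of the cytosolic ribosome is encoded by the Rpl and Rplp genes of the large subunit and the Rps and Rpsa genes of the small subunit. Members were taken by symbol: Rpl or Rps with a number and at most 1 of the suffix letters a, x, y or l and a digit, together with Rplp0, Rplp1, Rplp2 and Rpsa. The rule found 81 genes among 20278, of which 48 belong to the large and 33 to the small subunit. All 81 stood in each of the 3 deposited tables and passed the filter on low values, so no member was lost to it. The rule left out 25 symbols marked as pseudogenes by the suffix -ps, and ribosomal genes that carry other names, such as Fau and Rack1.

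The libraries were made from whole retinas of adult C57BL/6 mice of around 6 weeks, from total RNA depleted of ribosomal RNA. HDAC5AA and HDAC5DAD retinas (4 libraries each) had been injected, into the vitreous, with AAV2 particles (an adeno-associated viral vector) that carried a form of HDAC5, a class IIa histone deacetylase, and GFP retinas (3 libraries) the same kind of virus carrying green fluorescent protein. In all 3 of these groups the optic nerve was crushed 2 weeks after the virus and retinas were taken 4 days after the crush. Uninjured retinas (4 libraries) had no crush and no virus is named for them, so crush and virus cannot be told apart in any comparison with Uninjured. What AA and DAD mark in the protein is not explained in the labels. Nor do they tie libraries to separate animals, and p-values therefore measure the spread between libraries, which may be technical. The virus was given to reach retinal ganglion cells, the neurons whose axons form the optic nerve, which are a small part of the whole retina that was measured. GFP replicate 1 was not analysed here.

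Ribosomal proteins are made in the cytoplasm, imported into the nucleolus and assembled there on ribosomal RNA into the small subunit, which decodes the message, and the large subunit, which joins the amino acids. Their mRNAs are known to begin with a run of pyrimidines, the 5′ terminal oligopyrimidine tract, through which mTOR signalling and the protein LARP1 set how strongly they are translated and how long they last. In injured retinal ganglion cells, mTOR activity is known to fall, and raising it is known to favour regrowth of the axon. The mRNA levels described here are not protein levels and do not show how much of each mRNA was translated.

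Recovered reads per library ranged from 10940144 to 30975648. Features that hold ribosomal RNA sequence took 0.0212% to 9.87% of them, and 2 libraries lay over 5%, HDAC5AA replicate 4 at 9.87% and HDAC5DAD replicate 1 at 5.64%. At a limit of 1%, HDAC5AA, HDAC5DAD and Uninjured each had 2 libraries at or above it and 2 below, while the 3 GFP libraries lay above it. Hdac5 had 6694.5 to 8444 normalized reads in HDAC5AA and 7467 to 8634 in HDAC5DAD, against 6566 to 6673 in GFP and 6593 to 6959 in Uninjured libraries, so that the lowest HDAC5AA library, replicate 4, lay within the Uninjured range. Rod photoreceptor markers were abundant, as the summed reads of 10 rod genes exceeded those of 13 ganglion cell genes in every group. The ganglion cell sum was 10302 to 11105 in HDAC5AA, 9747 to 11931 in HDAC5DAD and 9367 to 10614 in GFP, against 19527 to 21842 in Uninjured libraries, without overlap. In bulk tissue, fewer cells of a type and less RNA per cell cannot be told apart.

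The 81 genes together held 0.317% to 0.407% of the recovered reads of a library. After scaling by size factors, their summed level was 74735, 72245, 73268 and 67490 normalized reads in HDAC5AA replicates 1 to 4, and 70564, 78742, 76258 and 73263 in HDAC5DAD replicates 1 to 4. The sum was 69094, 67364 and 70374 in GFP replicates 2 to 4, and 67448, 63380, 68184 and 65982 in Uninjured replicates 1 to 4. Every HDAC5DAD library lay above every Uninjured library, whereas HDAC5AA replicate 4, the library with the most ribosomal RNA, and GFP replicate 3 lay inside the Uninjured range. Group means were 71934 ± 3135 in HDAC5AA and 74707 ± 3556 in HDAC5DAD (SD, n = 4 each), 68944 ± 1511 in GFP (n = 3) and 66248 ± 2120.3 in Uninjured (n = 4). The sum is weighted towards the members with the most reads. The mean log2 level, in which each gene counts equally, was 8.42 ± 0.10 in HDAC5AA, 8.47 ± 0.02 in HDAC5DAD, 8.42 ± 0.04 in GFP and 8.35 ± 0.06 in Uninjured (SD). By that measure HDAC5AA did not lie above GFP.

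**Figure D1:**
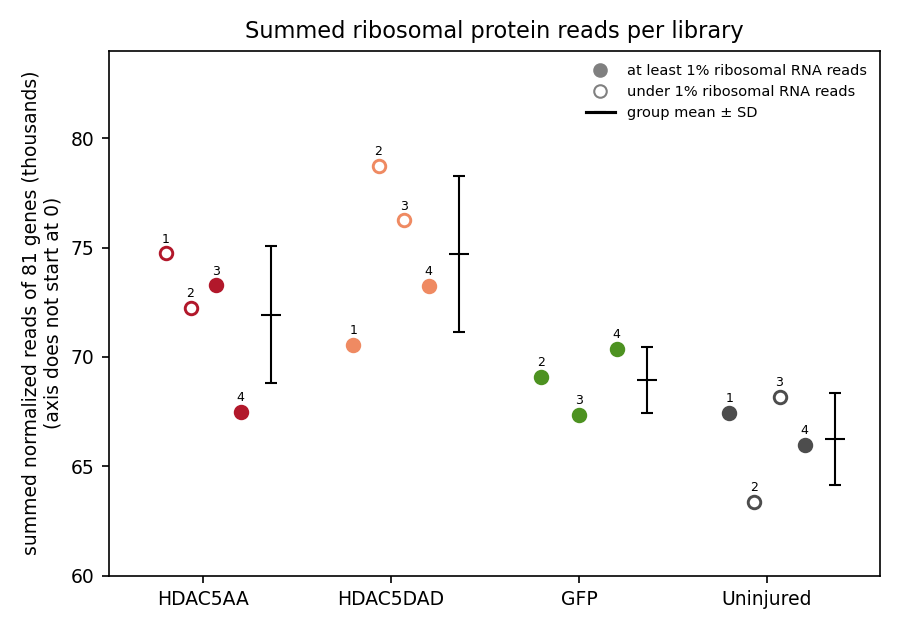
Summed normalized reads of the 81 ribosomal protein genes in each library (points, numbered by replicate), by group on the x axis, with the group mean and SD beside them. Filled points are libraries with at least 1% ribosomal RNA reads. The 4 HDAC5DAD libraries, from 70564 to 78742, lie above the 4 Uninjured libraries, from 63380 to 68184, while HDAC5AA replicate 4 at 67490 does not.

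In HDAC5AA replicates 1 to 4, 74, 51, 61 and 40 of the 81 genes lay above their Uninjured mean on the log2 scale. In HDAC5DAD replicates 1 to 4 the counts were 64, 61, 59 and 69, and in GFP replicates 2 to 4 they were 47, 56 and 66. The Uninjured libraries themselves spread from 20 genes in replicate 2 to 65 in replicate 3.

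**Figure D2:**
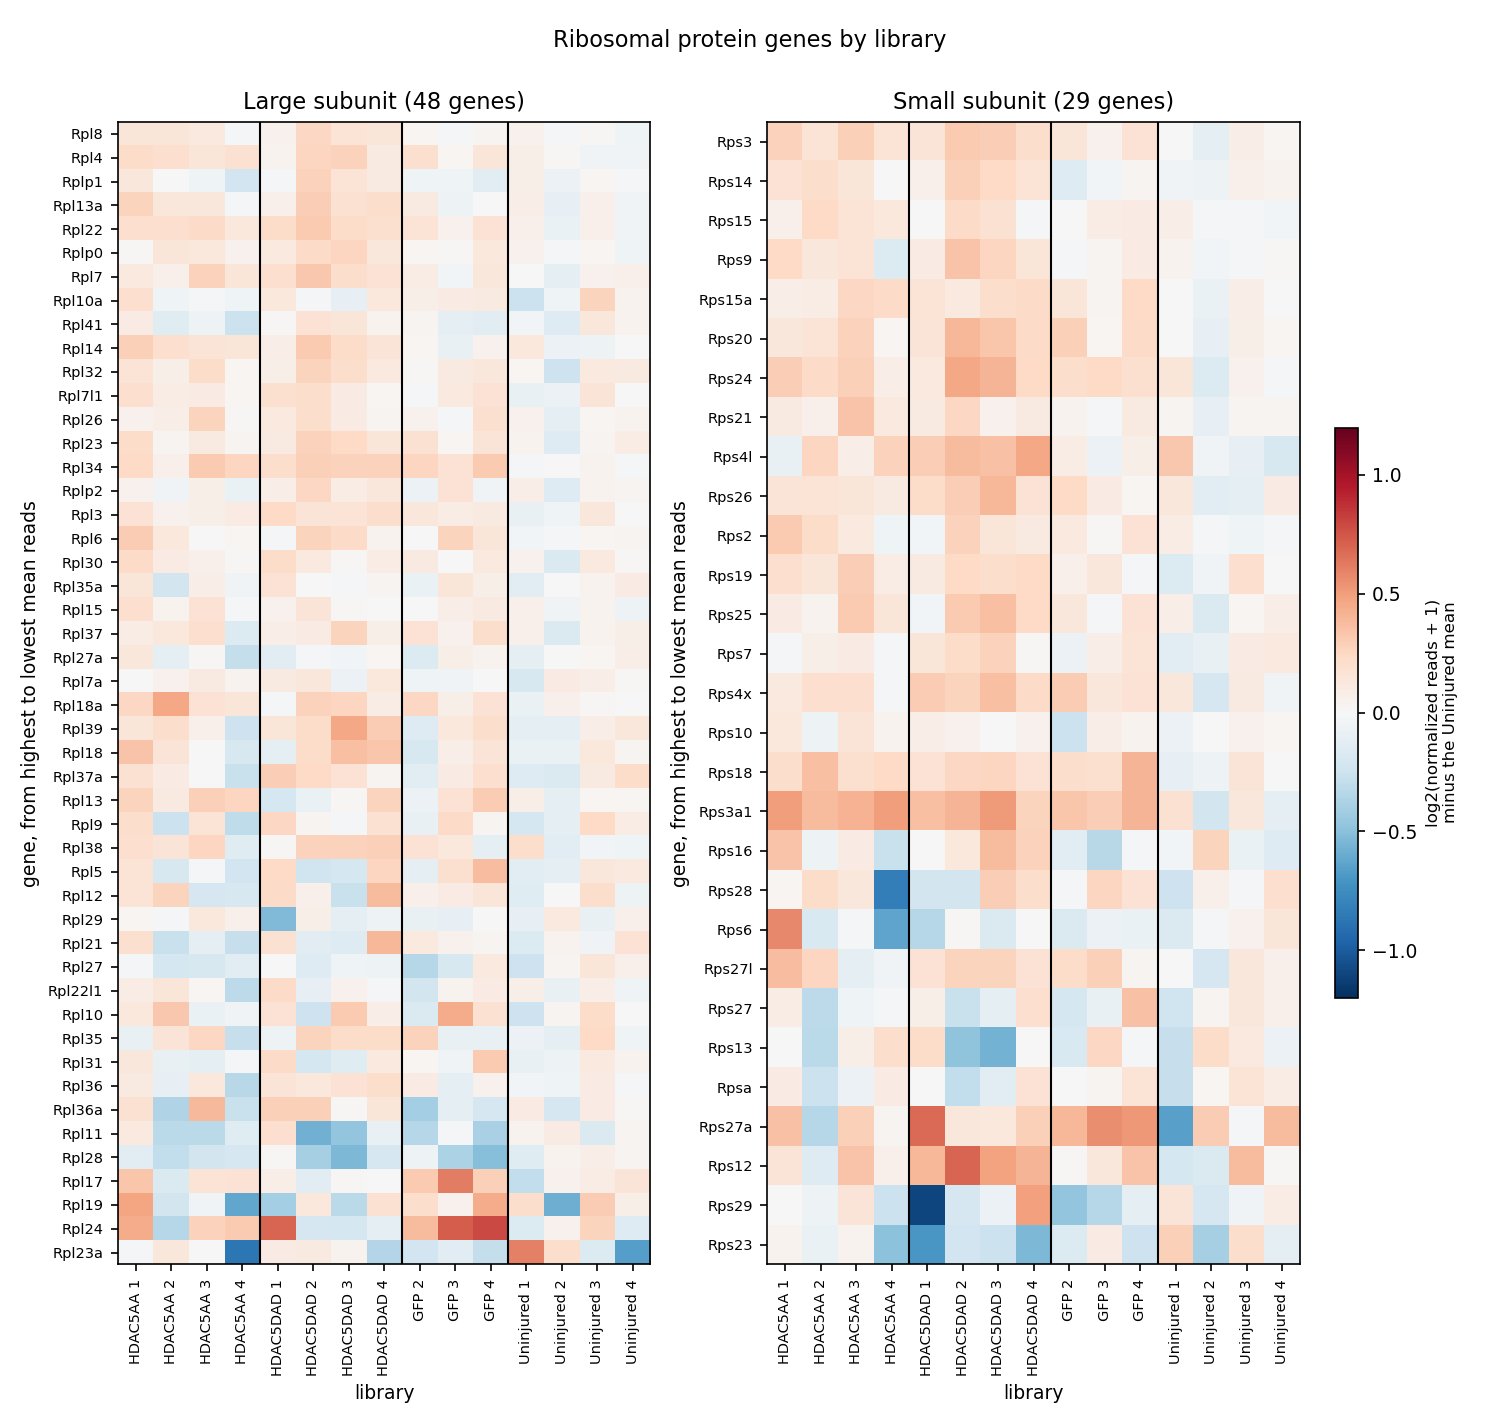
Log2 of normalized reads plus 1, minus the mean of the Uninjured libraries, for 77 of the 81 genes (rows, from highest to lowest mean reads within each subunit) in each of the 15 libraries (columns). Red is above and blue below the Uninjured mean. Warm colours cover most of the upper rows in the HDAC5DAD columns, and the lowest rows, with the fewest reads, vary in both directions within groups.

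Marker RNAs of other cell types differed between the groups. The summed reads of 14 microglia and macrophage genes were 3737 to 6338 in HDAC5AA, 4435 to 6593 in HDAC5DAD and 3089 to 4595 in GFP, against 1141 to 1390 in Uninjured libraries, and 13 of the 14 were called higher in each of the 3 comparisons. The exception was P2ry12, a receptor of resting microglia, with log2 fold changes of 0.05 in HDAC5AA, 0.10 in HDAC5DAD and 0.14 in GFP. Of 12 lymphocyte and plasma cell genes 7 were measured, and their sum was 2903 to 5407 in HDAC5AA, 3538 to 8293 in HDAC5DAD and 2828 to 4007 in GFP, against 1753 to 1985 in Uninjured. Of 8 Mueller glia genes, Vim, Gfap and Apoe were called higher and Glul, the glutamine synthetase gene, lower in all 3 comparisons, and Dkk3 was called higher in both HDAC5 groups. Their summed reads nonetheless overlapped, at 92876 to 95202 in HDAC5AA and 91054 to 110670 in HDAC5DAD, against 93875 to 99742 in Uninjured, while GFP lay lower at 87340 to 89127. The summed reads of 6 RNAs known to stay in the nucleus were 200190, 161840, 193350 and 194650 in HDAC5AA replicates 1 to 4 and 227330, 154700, 173720 and 223740 in HDAC5DAD replicates 1 to 4. They were 196440 to 217040 in GFP and 177920 to 226960 in Uninjured libraries. The lowest of the 15 sums were those of HDAC5DAD replicate 2, HDAC5AA replicate 2 and HDAC5DAD replicate 3, and HDAC5DAD replicates 2 and 3 had the highest ribosomal protein sums. The part of these markers in the ribosomal protein levels was not tested. Mitochondrially encoded genes had a median log2 fold change of 0.09 in HDAC5AA, -0.30 in HDAC5DAD and 0.08 in GFP, with 0 of 7 called by limma in each and 0, 1 and 0 lower at an unadjusted p under 0.05.

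In HDAC5DAD retinas, 22 of the 81 genes were higher than in Uninjured retinas and none was lower (limma, Benjamini-Hochberg adjusted p under 0.05 over 19495 genes). Over all genes tested, 7.87% were called higher and 5.76% lower. The members' median log2 fold change was 0.14, against -0.01 over all genes, and 65 of 81 were positive, against 48.1% of all genes, of which 51.9% were negative. At an unadjusted p under 0.05, 30 members were higher and 0 lower, against 12.3% and 11.3% of all genes. These are small changes: among the called genes the log2 fold change ran from 0.15 for Rpl8 to 0.50 for Rps12. In 24 genes the HDAC5DAD and Uninjured libraries did not overlap, with HDAC5DAD higher in each, and the share of all genes apart in that direction was 9.33%. No member was apart with HDAC5DAD lower, against 7.14% of all genes.

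Both subunits took part in the HDAC5DAD difference. Of the small subunit, 13 of 33 genes were called, with a median log2 fold change of 0.19 over all 33. Among them were Rps3, Rps3a1, Rps4l, Rps4x, Rps9, Rps12, Rps14, Rps15a, Rps20, Rps24 and Rps26. Of the large subunit, 9 of 48 were called, with a median of 0.12 over all 48. They were Rpl3, Rpl4, Rpl7, Rpl8, Rpl13a, Rpl14, Rpl22, Rpl34 and Rplp0, the last of which anchors the stalk that recruits translation factors to the ribosome. The difference between the subunits was not tested.

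Rps3, a small subunit protein at the mRNA entry channel that also acts in DNA repair, had 5499, 6143, 6057 and 5694 normalized reads in HDAC5DAD replicates 1 to 4 and 4931, 4565.5, 5220.3 and 5009.6 in Uninjured replicates 1 to 4. The lowest HDAC5DAD library lay above the highest Uninjured one, and the log2 fold change was 0.25 ± 0.05 (SE; limma adjusted p = 0.00141). Rpl22, a large subunit protein dispensable for translation in general and needed for T cell development in mice, had 2204, 2357, 2198 and 2163 normalized reads in HDAC5DAD and 1968, 1792, 1974 and 1842 in Uninjured libraries. Those groups were again apart, with a log2 fold change of 0.24 ± 0.05 (SE; limma adjusted p = 0.00141).

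Rpl34, a large subunit protein, had 690.4, 726, 725 and 725 normalized reads in HDAC5DAD libraries and 589.6, 595, 614 and 589 in Uninjured libraries. The groups did not overlap, and the log2 fold change was 0.26 ± 0.06 (SE; limma adjusted p = 0.00283). Rps3a1, a small subunit protein near the site where initiation factors bind, had 265, 274, 294 and 249 normalized reads in HDAC5DAD libraries and 235, 177, 227 and 192 in Uninjured libraries. Its log2 fold change was 0.38 ± 0.09 (SE; limma adjusted p = 0.00361), also without overlap.

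The count of 22 in HDAC5DAD rested in part on single libraries: it was 13 without HDAC5DAD replicate 2, 10 without HDAC5DAD replicate 3, 10 without Uninjured replicate 2 and 12 without Uninjured replicate 4. In the same order, limma called 1379, 1240, 1328 and 1374 of 19495 genes higher in these fits. Rps3, Rpl22, Rpl34 and Rps3a1 passed in each of these fits. With the libraries at or above 1% ribosomal RNA reads alone (2 against 2), limma called 0 members, where it called 4.63% of all genes higher and 4.36% lower. At an unadjusted p under 0.05, 12 members were higher and 0 lower there, against 9.71% and 9.77% of all genes, and the median log2 fold change was 0.12. With those under 1% alone it called 11 members, with a median of 0.19. Of these, 10 were higher, against 4.41% of all genes, with 2.01% lower, and Rps13, named after its value was seen, was lower (log2 fold change -0.69 ± 0.18 SE, limma adjusted p = 0.0411).

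In HDAC5AA retinas, 7 of the 81 genes were higher than in Uninjured retinas and none was lower by the same test. Over all genes, 5.52% were called higher and 3.25% lower. The median log2 fold change of the members was 0.10, against -0.01 over all genes, and 56 of 81 were positive, against 47.8% of all genes, of which 52.2% were negative. At an unadjusted p under 0.05, 22 members were higher and 0 lower, against 9.96% and 8.21% of all genes. The called genes included Rps3a1 and Rps3 of the small subunit and Rpl4, Rpl14, Rpl22 and Rpl34 of the large subunit. The libraries were apart, with HDAC5AA higher, for 12 members, where the share of all genes was 7.11%, and for no member with HDAC5AA lower, against 5.56%.

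Rps3a1 had the smallest adjusted p of the members in HDAC5AA, with 292, 269, 275 and 292 normalized reads in HDAC5AA replicates 1 to 4 against 235, 177, 227 and 192 in Uninjured libraries. Its log2 fold change was 0.45 ± 0.09 (SE; limma adjusted p = 0.00112), and each HDAC5AA library lay above each Uninjured one. Rps3 had 5956, 5530.3, 6009 and 5504 normalized reads in HDAC5AA libraries, all above the Uninjured maximum of 5220.3, with a log2 fold change of 0.22 ± 0.05 (SE; limma adjusted p = 0.00538). Rpl22 had 2170.5, 2183, 2222 and 2072 normalized reads in HDAC5AA libraries, above the Uninjured maximum of 1974, with a log2 fold change of 0.19 ± 0.05 (SE; limma adjusted p = 0.0131).

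Leaving out 1 library changed the HDAC5AA count of 7 to 4 without HDAC5AA replicate 1, 3 without HDAC5AA replicate 3, 4 without Uninjured replicate 2 and 4 without Uninjured replicate 4, and to 12 without the 2 libraries over 5% ribosomal RNA reads, an alternative chosen after seeing the data. Without those single libraries, in the same order, limma called 989, 986, 994 and 957 of 19495 genes higher. The member counts of these 4 fits thus lay near or below the share of all genes. At an unadjusted p under 0.05, 19, 14, 15 and 21 members were higher there, against 1875, 1805, 1900 and 1843 of all genes. Lower were 1, 0, 0 and 0 members, against 1620, 1432, 1420 and 1539 of all genes. The HDAC5AA count was 11 with scaling by total reads without ribosomal RNA features, which gave 8 in GFP. That scaling also moved the median log2 fold change of all genes, from -0.01 to 0.02 in HDAC5AA and from 0.01 to 0.06 in GFP. The part of this shift in the counts was not tested. Limma called 1 member within the libraries at or above 1% ribosomal RNA reads (Rpl34, median of the members 0.05) and 1 within those under 1% (Rpl14, median 0.12), with 2 libraries a group. Of all genes, 2.72% were called higher and 1.95% lower at or above 1%, and 3.06% and 0.975% under 1%.

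In GFP retinas, 3 of the 81 genes were higher than in Uninjured retinas and none was lower. Over all genes, 5.64% were called higher and 5.87% lower. The median log2 fold change of the members was 0.06, against 0.01 over all genes, and 63 of 81 were positive, against 51.5% of all genes, of which 48.5% were negative. At an unadjusted p under 0.05, 13 members were higher and 0 lower, against 10.9% and 11.6% of all genes. GFP libraries lay above all Uninjured libraries in 8 members, against 10.6% of all genes, and below all of them in none, against 11.2%. The called genes were Rpl34, Rps3a1 and Rps18, a small subunit protein of the head of that subunit.

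Rpl34 had 713, 672 and 740.25 normalized reads in GFP replicates 2 to 4, all above the Uninjured maximum of 614, with a log2 fold change of 0.25 ± 0.07 (SE; limma adjusted p = 0.0119). Rps3a1 had 261, 254 and 274 in GFP libraries, above the Uninjured maximum of 235, with a log2 fold change of 0.35 ± 0.10 (SE; limma adjusted p = 0.0191). Rps18 had 277, 274 and 317 normalized reads in GFP libraries and 223, 229.7, 267 and 239 in Uninjured libraries, with a log2 fold change of 0.27 ± 0.09 (SE; limma adjusted p = 0.0455). Its reads also exceeded the Uninjured maximum in every HDAC5AA library (273.9 to 307.85) and every HDAC5DAD library (269.05 to 286.68). The GFP count of 3 was 1 without GFP replicate 2, Uninjured replicate 2 or Uninjured replicate 4, and 0 without GFP replicate 4, where 6 were higher and 0 lower at an unadjusted p under 0.05. In the same order, limma called 973, 965, 1085 and 887 of 19495 genes higher, so that these counts lay below the share of all genes. Without GFP replicate 4, 1854 of all genes were higher and 2008 lower at an unadjusted p under 0.05. Within the libraries at or above 1% ribosomal RNA reads limma called Rpl34 alone (median of the members 0.06), against 4.47% of all genes higher and 4.52% lower, and no GFP library lay under 1%.

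**Figure D3:**
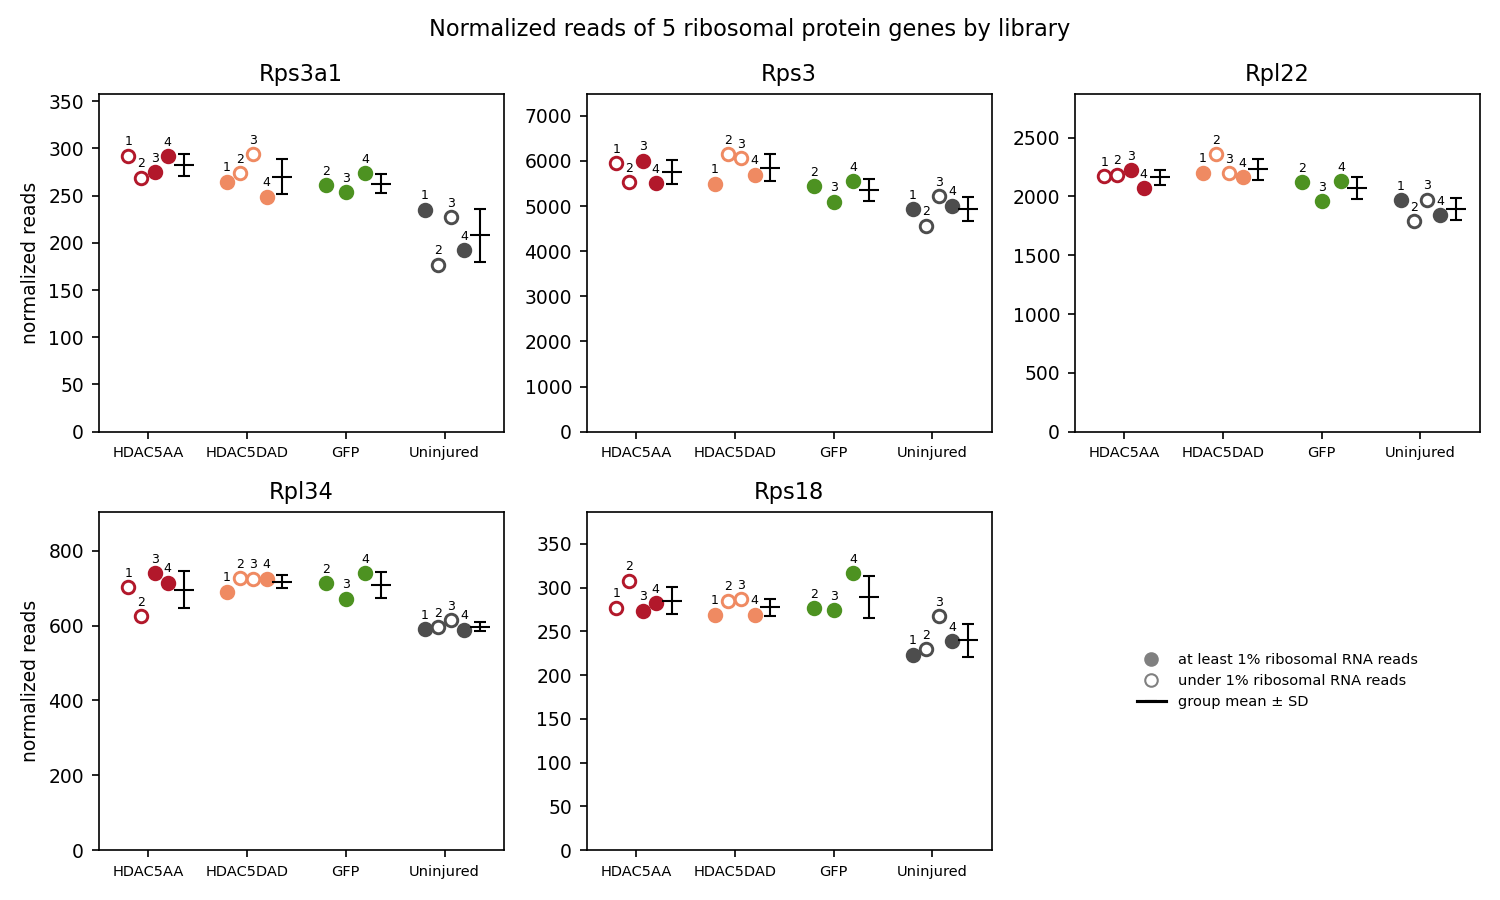
Normalized reads of 5 ribosomal protein genes in each library (points, numbered by replicate), by group, with the group mean and SD. The 4 Uninjured libraries of Rpl34, from 589 to 614, lie below every library of the other 3 groups, and Rps3a1 and Rps18 show the same separation.

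Since the 3 injured groups share the Uninjured libraries, their values stand side by side and are not independent. The authors' deposited tables, which hold their own fold changes and adjusted p-values, gave 11 members higher in HDAC5AA, 23 in HDAC5DAD and 3 in GFP at their adjusted p under 0.1, and 0 lower in each. Their 3 in GFP were Rps24, Rps3a1 and Rpl34, without Rps18. Rpl3 and Rps12, called here in HDAC5DAD, were not among their 23. In the same authors' deposited tables, 6.17% of all genes with an adjusted p were higher and 3.96% lower in HDAC5AA, 8.82% and 6.74% in HDAC5DAD, and 6.31% and 7.4% in GFP, so that the GFP count lay below that share.

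The sequences around the RefSeq starts of the genes named above show how far these annotated starts resemble the pyrimidine tract. They cover 15 bases before and 15 from the start of the RefSeq gene model (GRCm38.p6), 5′ to 3′ on the gene's strand, and capitals mark the longest run of C and T.
Rps3a1, chr3:86142654-86142683, minus strand: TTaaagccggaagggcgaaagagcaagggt
Rps3, chr7:99483695-99483724, minus strand: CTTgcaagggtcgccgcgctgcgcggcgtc
Rpl22, chr4:152325711-152325740, plus strand: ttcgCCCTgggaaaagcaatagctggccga
Rpl34, chr3:130730384-130730413, minus strand: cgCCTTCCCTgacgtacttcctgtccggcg
Rpl34, second start, chr3:130730323-130730352, minus strand: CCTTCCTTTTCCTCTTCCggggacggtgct
Rps18, chr17:33955651-33955680, minus strand: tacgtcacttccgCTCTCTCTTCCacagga
The runs of Rps18 (11 bases) and of the second Rpl34 start (18 bases) are long, while those of Rps3a1 (2 bases), Rps3 (3) and Rpl22 (4) are short, so that members called higher were found with and without a long run in this window. By the GENCODE positions given below, the 5′ ends of Rps3a1, Rps3, Rpl22 and Rps18 lie outside these windows. A tract at those ends would not be seen here, so the windows do not show which of these mRNAs begin with one. Rpl22 has another annotated start, not shown, whose run is 5 bases.

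RefSeq windows were used for 60 of the 81 genes, in 71 windows. Members on chromosome 18, among them Rps14, which was called in HDAC5DAD, were left out of these counts. The windows of all genes kept that chromosome. A run of at least 8 C or T, searched on the gene's strand, stood in 39.4% of these windows, against 12.0% of 32851 windows of all genes. Among matched genes, 8 of the 14 called in HDAC5DAD and 19 of the 46 not called had such a run. A window without one says only that these letters are not there.

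By position, Rps3a1 lies at chr3:86137940-86142702 and Rpl34 at chr3:130726831-130730398, both on the minus strand. Rps3 lies at chr7:99477896-99483738 (minus), Rpl22 at chr4:152325742-152334071 (plus) and Rps18 at chr17:33951999-33956001 (minus), all in GENCODE M21 on mm10. The 81 genes are spread over 19 chromosomes, with 4 on the X. Of the members, 30 contain small nucleolar RNA genes, 58 in all, and exons of 27 members overlap a gene on the same strand and of 19 a gene on the other strand. The strand mode of counting is not given in the sources used here, so reads of such overlaps cannot be assigned to either gene.

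Levels per kilobase of exon differed widely among members. Rplp1, a stalk protein, had the highest mean at 9177 normalized reads per kilobase over all 15 libraries, followed by Rpl8, near the centre where peptide bonds form, at 5617.5, and Rps15 at 3392. Rps23 had the lowest at 11.9, with Rpl23a at 21.0 and Rpsa at 21.1, and the median of the 81 was 168. By group, Rplp1 averaged 8886 ± 915 in HDAC5AA and 9965 ± 869 in HDAC5DAD (SD, n = 4 each), 8628 ± 248 in GFP (n = 3) and 9091 ± 383 in Uninjured (n = 4). The 4 HDAC5DAD libraries lay above the 3 GFP libraries (log2 difference 0.20 ± 0.07 SE, limma adjusted p = 0.314), and every other pair of groups overlapped.

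These levels moved with how much of the mRNA can be told from other genes. The reads were 50 bases long, and 80 members share at least one 50-base stretch with a pseudogene, a median of 9 pseudogenes and up to 120 for Rpl7a. The share of 50-base stretches found in no other gene ran from 1.35% for Rps27 to 100%, with a median of 44.0%. Across 80 genes, Spearman's rho between this share and the level per kilobase was 0.48, and between the number of pseudogenes and the level it was -0.51. Both describe genes that share libraries and depth, and their part in the levels was not tested. The 34 genes with over 50% unique stretches had a median of 280.1 normalized reads per kilobase, against 101 for the other 46.

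**Figure D4:**
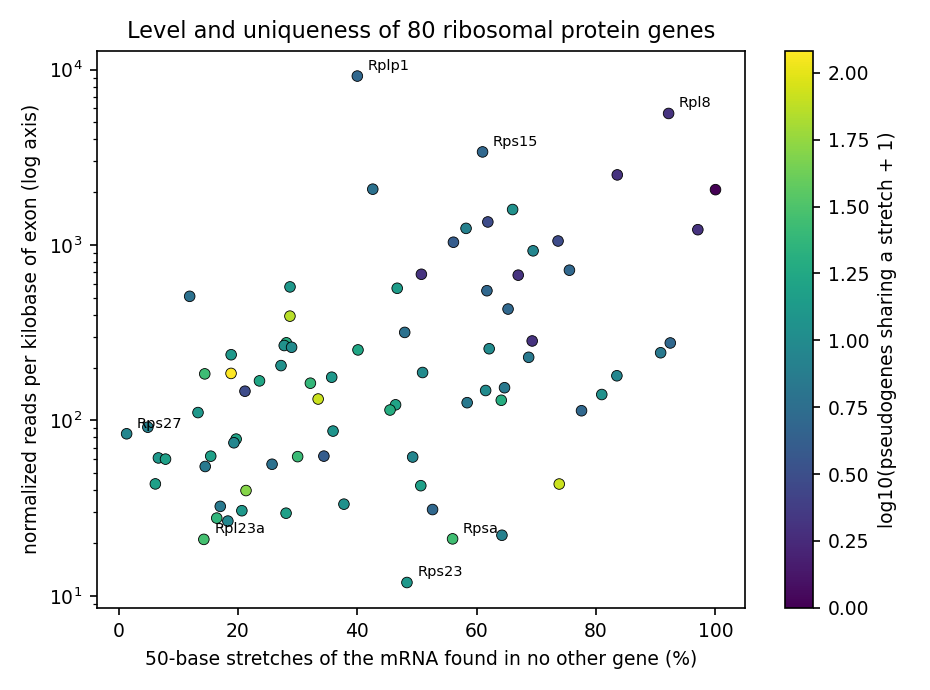
Normalized reads per kilobase of exon (log axis) against the share of 50-base stretches of the mRNA found in no other gene, for 80 ribosomal protein genes (Rps4l, annotated as a pseudogene, has no such value). Colour gives the number of pseudogenes that share a stretch. Rpl8, at 92.1% unique, is high and Rpl23a, at 14.3%, is low, but Rpsa and Rps23 are low at 56.0% and 48.3%.

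The fold changes also moved with the level. Among the 35 members with a mean of at least 500 normalized reads, all 35 had a positive log2 fold change in HDAC5DAD, with a median of 0.19 and 19 called. Among the 46 below 500, 30 were positive, the median was 0.06 and 3 were called. In HDAC5AA the higher members had a median of 0.13 with 32 of 35 positive, and the lower ones 0.01 with 24 of 46 positive. In GFP the medians were 0.08 and 0.06. The median standard error of the HDAC5AA and HDAC5DAD fold changes was 0.07 in the higher and 0.13 in the lower members. Among the 34 members with over 50% unique stretches, the counts called were 5 in HDAC5AA, 15 in HDAC5DAD and 1 in GFP. All genes were not split by read level or by unique stretches. The counts in these subsets therefore have no matching share of all genes and do not show an excess particular to the members.

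**Figure D5:**
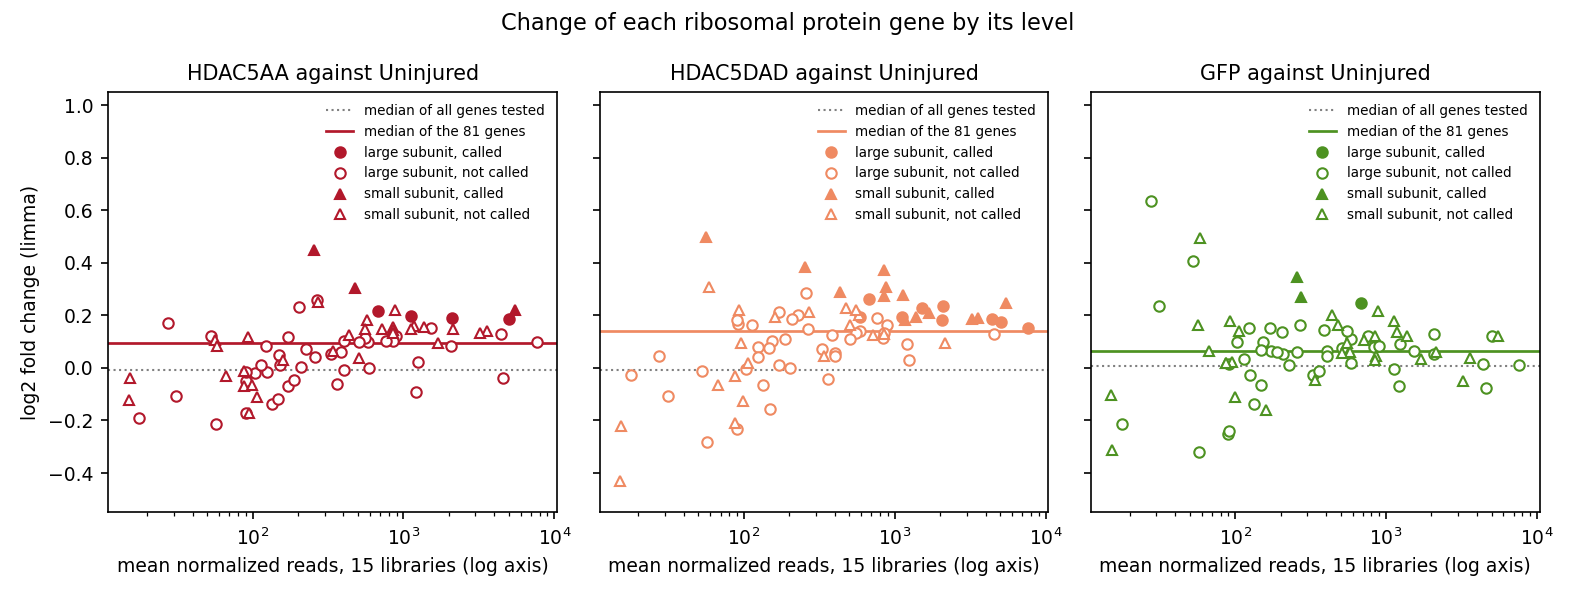
Log2 fold change of each of the 81 genes against Uninjured (y axis) by its mean normalized reads over 15 libraries (log axis), for HDAC5AA, HDAC5DAD and GFP. Filled symbols passed an adjusted p under 0.05, circles are large subunit and triangles small subunit genes, and lines give the medians. In HDAC5DAD the points above 500 reads all lie above 0, and the spread widens towards low reads.

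Setting the injured groups against each other gave 0 called members in any direction. For HDAC5AA against GFP, limma called 0% of all genes, and 2 members were higher and 0 lower at an unadjusted p under 0.05, against 3.43% and 3.16% of all genes, with a median log2 fold change of 0.02 and 45 of 81 positive, where 49.1% of all genes were negative. Of the members, 2 were apart with HDAC5AA higher and 1 with HDAC5AA lower, against 4.22% and 3.68% of all genes. For HDAC5DAD against GFP, limma also called 0% of all genes, and 15 members were higher and 2 lower at an unadjusted p under 0.05, against 6.6% and 4.88% of all genes, with a median of 0.07. Of the members, 59 were positive and 22 negative, against 50.3% and 49.7% of all genes, and 13 were apart with HDAC5DAD higher and 1 with HDAC5DAD lower, against 5.81% and 5.13%. For HDAC5AA against HDAC5DAD, 0.00513% of all genes were called higher and 0.00513% lower, and 1 member was higher and 6 lower at an unadjusted p under 0.05, against 3.55% and 3.23% of all genes, with a median of -0.05. Of the members, 23 were positive and 58 negative, against 47.9% and 52.1% of all genes, and 0 were apart with HDAC5AA higher and 6 with HDAC5AA lower, against 1.69% and 1.52%. EdgeR and DESeq2 on the recovered reads also called 0 members in each of the 3. In the HDAC5AA against GFP comparison the sign of the median depended on the setting, from -0.03 to 0.05, with -0.01 when libraries were scaled by total reads without ribosomal RNA features. With that scaling, the median of all genes in this comparison was -0.03.

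The members with the largest differences between injured groups had few reads. Rpl24, a large subunit protein, had 32.0, 18.2, 28.4 and 29.2 normalized reads in HDAC5AA and 38.4, 20.1, 19.98 and 21.5 in HDAC5DAD, against 30.6, 39.3 and 40.9 in GFP. Both HDAC5 groups overlapped GFP, and the log2 difference was -0.46 ± 0.25 for HDAC5AA and -0.59 ± 0.25 for HDAC5DAD against GFP (SE; limma adjusted p = 0.768 and 0.385). Uninjured libraries had 20.7, 24.2, 28.2 and 20.7, within the range of each HDAC5 group and below every GFP library. Rpl36a had 109.6, 109, 90.3 and 99.3 normalized reads in HDAC5DAD against 67.1, 82.8 and 77.6 in GFP, apart but not past the threshold (0.42 ± 0.16, limma adjusted p = 0.355). Rps16 had 155, 169, 202 and 188 in HDAC5DAD against 141, 123 and 154 in GFP, likewise apart and not past the threshold (0.35 ± 0.14, limma adjusted p = 0.357). In Uninjured libraries Rpl36a had 95.6, 77.7, 95.6 and 90.3, and Rps16 had 152, 187, 146 and 139.

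Rps12, known in fruit flies to be needed for the removal of cells with ribosomal gene mutations, had 53.9, 43.4, 61.7 and 50.6 normalized reads in HDAC5AA against 64.1, 79.1, 67.8 and 64.5 in HDAC5DAD, without overlap (-0.39 ± 0.16 SE, limma adjusted p = 0.71). Against Uninjured libraries, at 41.5, 42.6, 63.1 and 48.8, Rps12 was called in HDAC5DAD (0.50 ± 0.16 SE, limma adjusted p = 0.0369). That call was lost with edgeR and DESeq2, and Rps12 has only 16.4% unique stretches and contains 3 small nucleolar RNA genes. Other members with large differences in these comparisons were also not called: Rps27a, a fusion of ubiquitin with a ribosomal protein (-0.41 ± 0.21), and Rps29 (0.27 ± 0.30) for HDAC5AA against GFP, Rpl17 (-0.42 ± 0.17) for HDAC5DAD against GFP, and Rpl13 (0.23 ± 0.10) and Rps23 (0.31 ± 0.24) for HDAC5AA against HDAC5DAD, all as log2 difference with SE and limma adjusted p of at least 0.367. Rps27a averaged 53.2 normalized reads in HDAC5AA, 69.9 in GFP and 51.2 in Uninjured, and Rps29 16.1, 13.1 and 16.5. Rpl17 averaged 48.0 in HDAC5DAD, 64.7 in GFP and 48.7 in Uninjured.

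Libraries with at least 1% ribosomal RNA reads were set against those under 1%, with the group as a covariate, over the 12 libraries of HDAC5AA, HDAC5DAD and Uninjured. Limma called 0 of 81 members, with 0 higher and 5 lower at an unadjusted p under 0.05, against 2.79% and 2.65% of all genes, and edgeR and DESeq2 also called 0. Of all genes, 0.0256% were called higher and 0.0103% lower. The median log2 difference of the members was -0.04, with 28 positive and 53 negative against 47.1% and 52.9% of all genes, and it was 0.00 without the 2 libraries over 5%. Rps6, the small subunit protein phosphorylated in the mTOR pathway, had a difference of -0.21 ± 0.14, Rpl23a of -0.25 ± 0.23, Rpl11, a protein that binds MDM2 under nucleolar stress, of 0.17 ± 0.12, and Rps13 of 0.20 ± 0.13 (SE; limma adjusted p of at least 0.898).

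Within the libraries at or above 1%, the summed level averaged 70379 normalized reads in HDAC5AA, 71914 in HDAC5DAD and 68944 in GFP, against 66715 in Uninjured. Within those under 1% it averaged 73490 in HDAC5AA, 77500 in HDAC5DAD and 65782 in Uninjured. The means of both HDAC5 groups exceeded the Uninjured mean in either class, with 2 libraries each. Whether the effect differed between the classes was tested as an interaction, chosen after seeing the data. No member was called for HDAC5AA or for HDAC5DAD by limma. At an unadjusted p under 0.05 there were 4 members for HDAC5AA, against 3.2% of all genes, and 10 for HDAC5DAD, against 9.83%, so that both counts were near the share of all genes. The median difference of the effects, at or above 1% minus under 1%, was -0.05 and -0.11 for the members, against -0.01 for all genes in both.

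Paralogs of members gave a mixed picture. Rpl22l1, which can replace Rpl22 in the ribosome and is known in mice to rise when Rpl22 is lost, averaged 124 ± 17 normalized reads in HDAC5AA, 128 ± 13 in HDAC5DAD, 122 ± 14 in GFP and 124 ± 7.4 in Uninjured libraries. Its log2 fold change was -0.01 ± 0.12, 0.04 ± 0.12 and -0.03 ± 0.13 (SE) in HDAC5AA, HDAC5DAD and GFP, with limma adjusted p of at least 0.882, while its parent Rpl22 was called in both HDAC5 groups. Rps27l, a p53 target in human and mouse cells, had log2 fold changes of 0.12, 0.22 and 0.18, and Rps27 of -0.07, -0.03 and 0.02, in HDAC5AA, HDAC5DAD and GFP, none of them called. Rpl7 was called in HDAC5DAD (0.23 ± 0.06 SE, limma adjusted p = 0.00643), and Rpl7l1, its relative, was not (0.13 ± 0.07 SE, limma adjusted p = 0.212). These pairs were not tested against each other.

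Starts of the paralogs that can be compared are shown on the same windows, again with the longest C and T run in capitals.
Rpl22l1, chr3:28805493-28805522, plus strand: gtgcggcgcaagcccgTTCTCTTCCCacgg
Rps27, chr3:90213634-90213663, minus strand: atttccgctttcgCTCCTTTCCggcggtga
Rps27l, chr9:66946071-66946100, plus strand: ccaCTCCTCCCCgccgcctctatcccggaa
Rpl22l1 has a run of 10 bases where the Rpl22 window above has 4, and Rps27 and Rps27l have runs of 9 each. The other annotated start of Rps27l, not shown, has a run of 4.

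Rps4x and Rps4l, its intronless relative annotated as a transcribed processed pseudogene, were both called in HDAC5DAD. Rps4l had 935.3, 992, 975 and 1057 normalized reads in HDAC5DAD libraries against 956, 743, 716 and 670.2 in Uninjured libraries, where Uninjured replicate 1 lay inside the HDAC5DAD range (0.37 ± 0.09 SE, limma adjusted p = 0.00817). Rps4x had 483, 469, 501 and 459.6 against 429.5, 339, 422 and 379.7, without overlap (0.29 ± 0.08 SE, limma adjusted p = 0.0110). Rps4l had more reads per kilobase than Rps4x, 902 against 267 over all libraries, while only 27.8% of the 50-base stretches of the Rps4x mRNA are unique.

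Ribosomal genes outside the symbol rule were measured for comparison. Rack1, a scaffold protein of the small subunit, averaged 7058 ± 251 normalized reads in HDAC5DAD and 6186 ± 194 in Uninjured libraries (SD, n = 4 each) and was called higher there (0.19 ± 0.05 SE, limma adjusted p = 0.00383). Fau, made as a fusion with a ubiquitin-like protein, was not called in any comparison with Uninjured, nor was Rack1 in HDAC5AA (0.13) or GFP (0.05).

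Other lists of the translation machinery differed in their counts. Of 78 mitochondrial ribosomal protein genes, none was called in HDAC5AA or GFP and Mrps25 was called higher in HDAC5DAD (0.25 ± 0.08 SE, limma adjusted p = 0.0225), with medians of 0.00, 0.04 and -0.02 in HDAC5AA, HDAC5DAD and GFP. At an unadjusted p under 0.05, 1 was higher and 2 lower in HDAC5AA, 8 higher and 0 lower in HDAC5DAD, and 1 higher and 7 lower in GFP. Of 55 genes of ribosome assembly and ribosomal RNA synthesis, limma called none, with medians of 0.03, 0.05 and 0.00, and 1, 6 and 1 were higher and 0 lower at an unadjusted p under 0.05 in HDAC5AA, HDAC5DAD and GFP. At that unadjusted limit, 1941 of 19495 genes were higher and 1601 lower in HDAC5AA, 2393 and 2204 in HDAC5DAD, and 2131 and 2261 in GFP. The counts of both lists lay below the share of all genes. Of 40 translation factor and related genes, limma called 4 higher and 0 lower in HDAC5AA. It called 7 higher and 1 lower in HDAC5DAD, and 2 higher and 2 lower in GFP. Limma called 1077 of all genes higher and 634 lower in HDAC5AA, 1534 and 1123 in HDAC5DAD, and 1100 and 1144 in GFP. The translation factors called higher thus exceeded the share of all genes in both HDAC5 groups, but not in GFP.

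Eif2s2, the beta subunit of initiation factor eIF2, averaged 528 ± 41 normalized reads in HDAC5AA and 551 ± 30 in HDAC5DAD (SD, n = 4 each), 578 ± 32 in GFP (n = 3) and 439.5 ± 12 in Uninjured (n = 4). It was called in each comparison with Uninjured, with log2 fold changes of 0.26, 0.32 and 0.39 in HDAC5AA, HDAC5DAD and GFP (limma adjusted p = 0.0111, 0.00105 and 0.000409). Eef1a1, the elongation factor found in most cells, was higher in HDAC5DAD (0.28 ± 0.05 SE, limma adjusted p = 0.000506), while Eef1a2, its form in neurons and muscle, was lower there (-0.22 ± 0.06 SE, limma adjusted p = 0.0157). Eef1a2 was also called lower in GFP (-0.22 ± 0.07 SE, limma adjusted p = 0.0270), but not in HDAC5AA.

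Among 21 regulators of ribosomal protein genes and translation, Myc, a transcription factor that drives ribosome production, and Eif4ebp1, an inhibitor of cap-dependent initiation that mTOR inactivates, rose in all 3 groups. Eif4ebp1 averaged 54.4 ± 4.1 normalized reads in HDAC5AA and 59.3 ± 8.8 in HDAC5DAD (SD, n = 4 each), 56.1 ± 7.1 in GFP (n = 3) and 25.2 ± 2.6 in Uninjured (n = 4). Myc averaged 22.7 ± 6.0 in HDAC5AA, 21.9 ± 3.3 in HDAC5DAD and 21.5 ± 0.80 in GFP, against 5.30 ± 2.2 in Uninjured. Pdcd4, an inhibitor of the helicase eIF4A, fell by 0.28, 0.26 and 0.26 on the log2 scale in HDAC5AA, HDAC5DAD and GFP. Trp53, the p53 gene, fell in HDAC5AA, with 453 ± 16 normalized reads against 629 ± 141 in Uninjured libraries (SD, n = 4 each). Mtor, Larp1, Rps6kb1, Tsc1 and Tsc2 were among the list's members that were not called in any of the 3.

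Of genes outside the set, those whose levels followed the mean log2 level of the 81 members most closely over the 15 libraries were Exosc4, an exosome subunit (Pearson r 0.90), Slc25a41, a mitochondrial carrier (0.89), and Prpf31, a splicing factor (0.87). These correlations describe libraries that share groups and depth and were picked as the highest.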

How the data were processed

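Per the labels, RNA was depleted of ribosomal RNA and sequenced as single 50-base reads after SMARTer library preparation. Per the submitters' processing notes, STAR, HTSeq, DESeq2 and mm10 were used, with versions, annotation and strand mode not given in the sources used here. The authors deposited 3 tables of normalized signal per gene and library (counts divided by a size factor), with their log2 fold changes and p-values. Every value was a whole read multiple of its library's factor within 0.01 (100% of values), so reads were recovered and joined over the 19495 genes present in all 3 tables. The Uninjured reads were equal between tables (157412 of 157412 values).

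Reads were scaled by median-of-ratios size factors ("normalized reads") and fitted with limma 3.58.1 (trend, robust) on log2(value + 1), which understates changes of low genes, for a mean of at least 1 over 15 libraries, two-sided, with Benjamini-Hochberg adjustment and a threshold of 0.05. "Called" means past it. Intervals from standard errors reflect the libraries, and a member's reads over all libraries ranged from 240 (Rps23, with the fewest) to 119553. Alternatives were TMM, total reads, other pseudocounts and filters, replicate number as a block, ribosomal RNA class or share as a covariate, each class alone, each table alone, each library left out, edgeR 4.0.16 and DESeq2 1.42.0 on the recovered reads. The fit was tested on simulated data. Members per comparison were named by the smallest adjusted p (up to 4 per direction, otherwise the 2 largest changes), by level (3 highest and 3 lowest per kilobase) and as paralogs. A few genes that the rule names are not reported here. The members, lists and rules were chosen with earlier results of these data known.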

Additional observations from a re-analysis of the deposited data

Results flagged for a closer look

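Of 96 groups of 4 libraries looked at (31 members and the summed level, in 3 groups), 3 had a library far from the other 3, where chance gives about 1 in 20. Rpl24 had 38.4 normalized reads in HDAC5DAD replicate 1, against 19.98 to 21.5 in the other HDAC5DAD libraries. Rpl34 had 690.4 normalized reads in HDAC5DAD replicate 1, against 724.5 to 726 in the others. Rpl13 had 204 normalized reads in HDAC5AA replicate 2, against 228 to 232 in the others. HDAC5DAD replicate 1 is the library with 5.64% ribosomal RNA reads, and its part in the first 2 values was not tested.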

How the results depend on the processing

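Counts of called members moved by over 1.5 times as follows. Scaling by total reads without ribosomal RNA features gave 11 in HDAC5AA and 8 in GFP against Uninjured (7 and 3 in the report), and leaving out the 2 libraries over 5% ribosomal RNA reads gave 12 in HDAC5AA. With total reads, the median log2 fold change of all genes was 0.02 in HDAC5AA and 0.06 in GFP, against -0.01 and 0.01 in the report. The libraries at or above 1% alone gave 1 in HDAC5AA, 0 in HDAC5DAD and 1 in GFP, and those under 1% alone gave 1 in HDAC5AA and 11 in HDAC5DAD, with fewer libraries in each. The members with over 50% unique stretches, fewer genes, gave 1 in GFP. Leaving out 1 library at a time gave 3 to 7 in HDAC5AA, 10 to 24 in HDAC5DAD and 0 to 3 in GFP against Uninjured, and 0 to 0 in the other comparisons. Over those fits against Uninjured, limma called 901 to 1045 of 19495 genes higher in HDAC5AA, 1240 to 1535 in HDAC5DAD and 758 to 1085 in GFP. The median log2 fold change of the members stayed within 0.05 to 0.13 in HDAC5AA, 0.12 to 0.19 in HDAC5DAD and 0.04 to 0.12 in GFP over all alternatives. The Rpl23a class difference turned to 0.21 with the replicate block (adjusted p = 0.999). The cause was not tested.

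Replicate numbers were shared between groups, but same-numbered libraries did not deviate together (21 pairs, r from -0.17 to 0.24, 3 over 0.1). With the replicate number as a block, 6 members were called in HDAC5AA, 18 in HDAC5DAD and 2 in GFP against Uninjured. Members with few reads limit what can be seen: at a mean under 500 reads the median standard error was 0.13.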
